A study of Mus musculus with 28 samples.

Results

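The Mettl21 lysine methyltransferase genes described here were Mettl21c, Mettl21e, Mettl21a and Vcpkmt, the last also called Mettl21d. These 4 genes, out of 18974 measured in both deposited expression tables, were described at 24 and 6 months of age in 2 leg muscles, with heart and liver for contrast. All 4 were found in both tables, each with 1 probe set per table, so no choice between probe sets arose. The genes were chosen with their leg muscle values known, so the age differences in quadriceps and gastrocnemius are given as descriptions without a test. The 28 arrays came from female C57BL/6J mice, an inbred strain, which were housed in groups, fed chow and fasted for a night. The groups were quadriceps at 24 months (n = 3) and 6 months (n = 3), gastrocnemius at 24 months (n = 4) and 6 months (n = 4), heart at 24 months (n = 4) and 6 months (n = 4), and liver at 24 months (n = 3) and 6 months (n = 3). The older mice were killed at 103 weeks and the younger at 24 weeks. The study set out to profile metabolic tissues of young and aged mice, and no genotype or drug differed between groups. Nothing in the labels ties an array to an animal, so p-values cover the spread among these arrays, which may be technical.

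Mettl21 enzymes belong to the seven-beta-strand methyltransferases, which take a methyl group from S-adenosylmethionine and place it on lysines of other proteins. METTL21A methylates chaperones of the Hsp70 family, and VCPKMT methylates VCP (p97), the ATPase that unfolds ubiquitin-tagged proteins and pulls them out of complexes and membranes. METTL21C is found mainly in skeletal muscle and has been reported to act on VCP there. Mettl21e is an active gene in mouse muscle, and its human counterpart is a pseudogene.

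Values are log2 expression as deposited, so a difference of 1 unit is a 2-fold difference. Quadriceps and liver share one array type and gastrocnemius and heart the other, and no level was compared across the 2 types or between genes. Array medians were 6.36 to 6.40 in quadriceps, 6.47 to 6.62 in liver, 4.88 to 4.97 in gastrocnemius and 5.27 to 5.35 in heart. In liver they parted by age, at 6.54 to 6.62 at 24 months and 6.47 to 6.48 at 6 months. The interquartile ranges of the liver arrays did too, at 2.43 to 2.66 at 24 months and 2.75 to 2.79 at 6 months. The part of this shift in the liver age differences was not tested. The fast myosin Myh4 lay at 13.70 to 13.83 in quadriceps and 13.55 to 13.62 in gastrocnemius, the cardiac myosin Myh6 at 13.16 to 13.29 in heart, and albumin (Alb) at 14.09 to 14.16 in liver. Alb also read 11.91, 8.60 and 7.58 in the quadriceps arrays at 24 months and 10.13, 10.45 and 9.55 at 6 months, above the array medians in each. On the other array type Alb read 4.47 to 4.97 in gastrocnemius, and in heart 4.73 to 5.37 at 24 months and 5.96 to 9.54 at 6 months. The 4 measured liver markers of a list of 5 averaged 7.26 to 9.92 in the quadriceps arrays at 24 months and 8.02 to 8.85 at 6 months, ranges that overlap between the ages. In heart the same markers averaged 5.32 to 5.69 at 24 months and 5.92 to 7.12 at 6 months, without overlap. The part of liver transcripts in the quadriceps and heart values was not tested. In such bulk samples, fewer cells of a type and less RNA per cell cannot be told apart.

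Mettl21c, the skeletal muscle methyltransferase, was lower at 24 months in both leg muscles and lay near the bottom of the range in liver and heart. Its quadriceps values were 8.46, 8.45 and 8.58 at 24 months and 9.56, 9.40 and 9.36 at 6 months. The 24-month arrays all lay below the 6-month arrays, and the gap between the groups was wider than the spread within either. The means were 8.50 ± 0.07 at 24 months and 9.44 ± 0.11 at 6 months (SD, n = 3 each), a difference of -0.94 (SE 0.079, 95% interval -1.12 to -0.76) or 1.92-fold lower. Only 1 of 19928 genes had a more negative difference in quadriceps. Mettl21c was also the 1 gene called there by limma after Benjamini-Hochberg adjustment over all genes, 0.00502% of those tested. Without any 1 of the 6 quadriceps arrays, with every probe set tested or with replicate number as a block, 0 genes were called there. Nothing is read from this call, because the choice of genes used the same contrast.

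In gastrocnemius Mettl21c was 7.29, 7.62, 7.50 and 7.84 at 24 months and 8.07, 7.93, 7.66 and 8.32 at 6 months. Here the groups overlapped: the highest array at 24 months, replicate 4, lay above the lowest at 6 months, replicate 3. The means were 7.56 ± 0.23 at 24 months and 8.0 ± 0.28 at 6 months (SD, n = 4 each), a difference of -0.43 (SE 0.147, 95% interval -0.76 to -0.10), 1.35-fold lower. It ranked 164 from the most negative of 30063 genes, and 0 of the 4 methyltransferase genes were called in gastrocnemius, where 0.00998% of genes were. In liver Mettl21c read 4.45, 4.57 and 4.52 at 24 months and 4.29, 4.51 and 4.52 at 6 months. In heart it read 3.79, 3.53, 3.57 and 3.53 at 24 months and 3.47, 3.42, 3.58 and 3.51 at 6 months. The ages overlapped in both, all below their array medians and not shown to exceed background. By tissue and age, the order was quadriceps at 6 months, quadriceps at 24 months, then liver, whose 2 ages overlapped. On the other array type it was gastrocnemius at 6 months, gastrocnemius at 24 months, then heart, where the neighbouring ages differed by less than the ranges of their arrays.

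**Figure D1:**
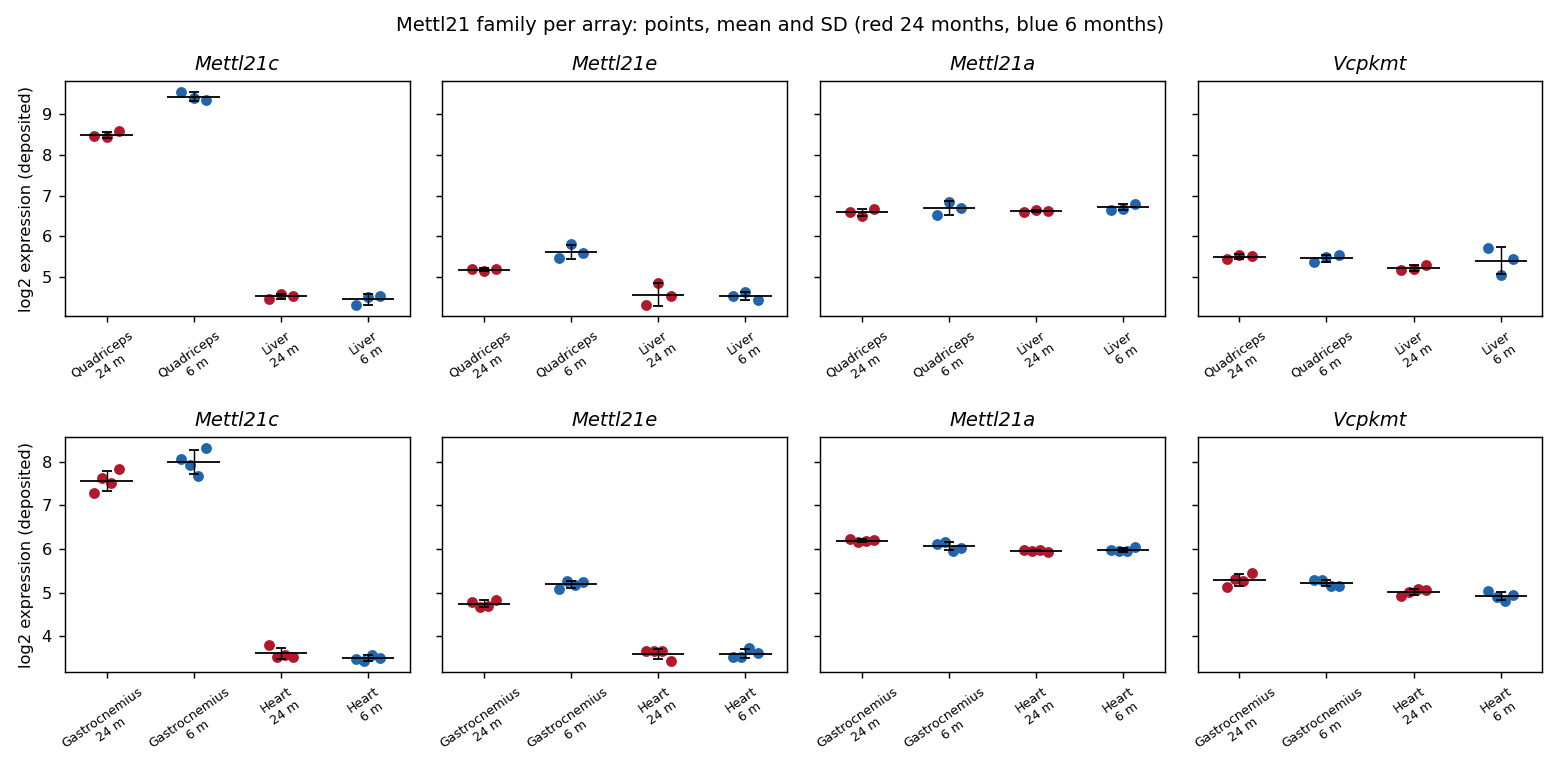
Log2 expression (y axis) of Mettl21c, Mettl21e, Mettl21a and Vcpkmt in every array, with quadriceps and liver in the upper panels and gastrocnemius and heart in the lower ones. Points are arrays (red 24 months, blue 6 months), bars the mean and whiskers the SD (n = 3 or 4). Mettl21c stands at 8.45 to 9.56 in quadriceps and 4.29 to 4.57 in liver, and the 24-month points of Mettl21c in quadriceps and of Mettl21e in both leg muscles lie below all 6-month points.

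Mettl21e, the other muscle-enriched methyltransferase gene, was lower at 24 months in both leg muscles with no overlap of the ages. Quadriceps arrays read 5.18, 5.13 and 5.20 at 24 months and 5.46, 5.80 and 5.59 at 6 months. The 24-month values were close together and the 6-month values more spread, and the means were 5.17 ± 0.04 and 5.62 ± 0.17 (SD, n = 3 each), a difference of -0.45 (SE 0.092, 95% interval -0.66 to -0.24), 1.36-fold lower. Gastrocnemius arrays read 4.78, 4.66, 4.70 and 4.83 at 24 months and 5.07, 5.26, 5.17 and 5.24 at 6 months. Each group spanned a narrow range, with means of 4.74 ± 0.08 at 24 months and 5.19 ± 0.09 at 6 months (SD, n = 4 each), a difference of -0.44 (SE 0.06, 95% interval -0.58 to -0.31), also 1.36-fold lower. Lower values with no overlap were seen in 5.33% of all genes in quadriceps, where 2 of the 4 methyltransferase genes had them, and in 4.78% in gastrocnemius, where 1 of the 4 did. Since the genes were chosen on these contrasts, nothing is read from those counts. The ranks were 58 of 19928 in quadriceps and 153 of 30063 in gastrocnemius. All quadriceps values of Mettl21e lay below the array medians, as did the 24-month gastrocnemius values, so these levels were not shown to exceed background and the differences may be compressed. Liver values were 4.31, 4.85 and 4.52 at 24 months and 4.52, 4.63 and 4.43 at 6 months. Heart values were 3.66, 3.65, 3.66 and 3.42 at 24 months and 3.53, 3.53, 3.74 and 3.61 at 6 months, and in both tissues the ages overlapped.

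Mettl21a, whose product methylates Hsp70 chaperones, showed small differences of opposite sign in the leg muscles. It read 6.60, 6.50 and 6.66 in quadriceps at 24 months and 6.52, 6.85 and 6.70 at 6 months, overlapping values with a difference of -0.10 (95% interval -0.32 to 0.11). In gastrocnemius it read 6.22, 6.16, 6.18 and 6.20 at 24 months and 6.12, 6.15, 5.96 and 6.01 at 6 months. There the 24-month arrays all lay above the 6-month arrays, by 0.13 on average (SE 0.054, 95% interval 0.01 to 0.25), as they did in 3.86% of all genes. Across all 28 arrays Mettl21a stayed within 6.50 to 6.85 in quadriceps, 6.59 to 6.79 in liver, 5.96 to 6.22 in gastrocnemius and 5.94 to 6.05 in heart, the narrowest tissue ranges among the 4 genes in liver and heart.

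Vcpkmt, the VCP methyltransferase, had overlapping ages in every tissue. Quadriceps arrays read 5.43, 5.54 and 5.52 at 24 months and 5.36, 5.48 and 5.53 at 6 months, a difference of 0.04 (95% interval -0.13 to 0.21). Gastrocnemius arrays read 5.13, 5.30, 5.27 and 5.45 at 24 months and 5.28, 5.28, 5.15 and 5.16 at 6 months, a difference of 0.07 (95% interval -0.09 to 0.23). The values of Vcpkmt lay above the array medians in gastrocnemius, and below them in quadriceps, liver and heart, where they were not shown to exceed background and a difference may be compressed. Lying above the array medians does not by itself show that the gastrocnemius values exceeded background.

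The contrast tissues asked whether the same genes differed with age outside leg muscle, and here limma's test applies. Of the 4 genes, 0 passed the adjusted threshold of 0.05 in liver and 0 in heart, where 0.326% of 19928 and 0.00665% of 30063 genes passed, and 0 of the 4 had an unadjusted p under 0.05 in either tissue, where 32.8% and 5.99% of genes did. In liver the differences were 0.07 for Mettl21c (95% interval -0.13 to 0.28, limma adjusted p = 0.579), 0.03 for Mettl21e (-0.27 to 0.33, 0.877), -0.09 for Mettl21a (-0.26 to 0.08, 0.425) and -0.17 for Vcpkmt (-0.51 to 0.17, 0.432). The sign of Mettl21e in liver turned to -0.04 with quantile normalization and to -0.08 with arrays centred on their median, and that of Mettl21c to -0.04 with centring. In heart they were 0.11 for Mettl21c (-0.04 to 0.26, limma adjusted p = 0.936), 0.00 for Mettl21e (-0.17 to 0.16, 0.996), -0.02 for Mettl21a (-0.12 to 0.07, 0.99) and 0.10 for Vcpkmt (-0.03 to 0.23, 0.928). Mettl21c and Mettl21e were not shown to exceed background in liver or heart, which limits how far a fall could show there. Whether age differences in leg muscle and contrast tissue differ from each other was not tested.

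**Figure D2:**
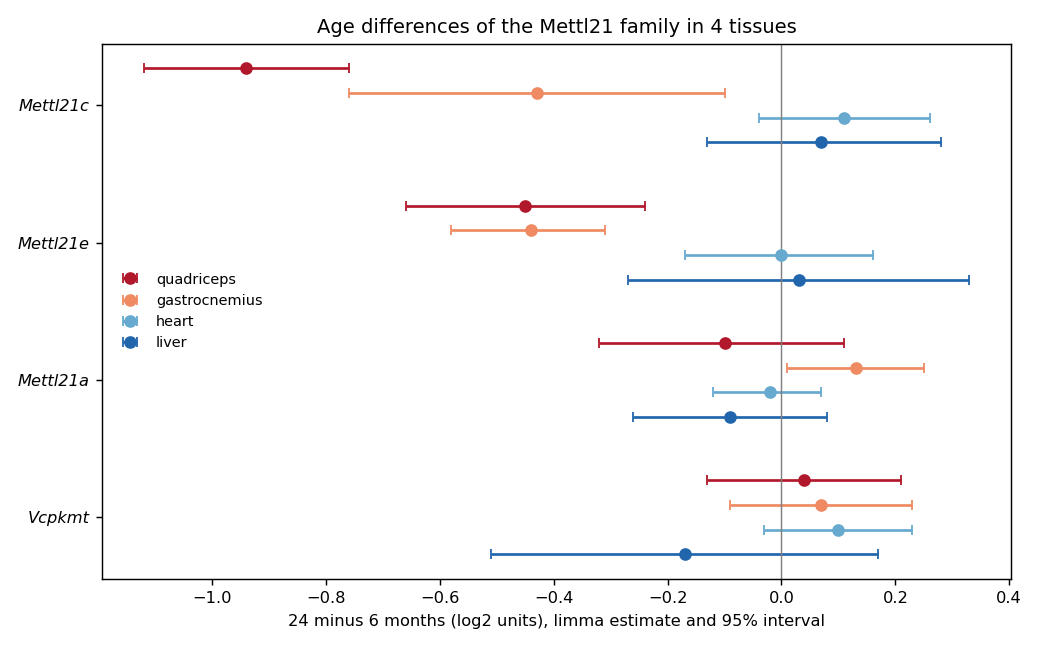
Difference between 24 and 6 months in log2 units (x axis) for each gene in quadriceps, gastrocnemius, heart and liver; points are limma estimates and whiskers 95% intervals. Mettl21c at -0.94 and -0.43 and Mettl21e at -0.45 and -0.44 lie left of 0 in the leg muscles, and in heart and liver the intervals of all 4 genes cross 0. The leg muscle intervals do not allow for the choice of genes on these values and are not read as tests.

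Leg muscle was also set against the other tissue of its array type at each age. The genes were chosen with the values of these leg muscle arrays known, so the tests here are not independent of the choice. Mettl21c was 3.98 units (95% interval 3.80 to 4.17) or 15.8-fold higher in quadriceps than in liver at 24 months and 5.0 units (4.79 to 5.21) or 32-fold higher at 6 months, with limma adjusted p of 1.33e-10 and 8.17e-11. Because Mettl21c in liver was not shown to exceed background, these folds can understate the contrast. Mettl21e was 0.61 units (0.32 to 0.90), or 1.53-fold, higher in quadriceps at 24 months and 1.09 units (0.86 to 1.32), or 2.13-fold, higher at 6 months (limma adjusted p = 0.00202 and 8.4e-06). Vcpkmt was 0.28 units higher at 24 months (0.09 to 0.46, limma adjusted p = 0.013) and differed by 0.06 at 6 months (-0.27 to 0.40, adjusted p = 0.718). Mettl21a differed by -0.03 at 24 months (-0.21 to 0.15) and -0.02 at 6 months (-0.23 to 0.20), and its sign turned to 0.17 or 0.18 at 24 months and 0.08 or 0.12 at 6 months when arrays were centred or quantile normalized. Thus 3 of the 4 genes passed at 24 months and 2 of the 4 at 6 months, where 68.2% and 69.8% of all genes did. All calls were in the higher direction, in which 24.6% of genes passed at 24 months and 28.1% at 6 months, against 43.6% and 41.6% in the lower one.

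Between gastrocnemius and heart, Mettl21c was 3.96 units (95% interval 3.71 to 4.20) or 15.5-fold higher at 24 months and 4.50 units (4.23 to 4.77) or 22.6-fold higher at 6 months (limma adjusted p = 5.54e-10 and 1.31e-09). Mettl21e was 1.14 units (0.99 to 1.30), or 2.21-fold, higher at 24 months and 1.58 units (1.44 to 1.72), or 2.99-fold, higher at 6 months (adjusted p = 2.05e-07 and 1.87e-08). Both muscle-enriched genes lay at 3.42 to 3.79 in the heart arrays, below the array medians and not shown to exceed background. Vcpkmt was 0.27 units higher at 24 months (adjusted p = 0.00681) and 0.30 at 6 months (0.00103). Mettl21a was 0.23 units higher at 24 months (adjusted p = 0.00138) and 0.08 at 6 months (-0.04 to 0.19, 0.197), and at 6 months it passed, at 0.43 or 0.48 units, with quantile normalization or centring. In all, 4 of the 4 genes passed at 24 months and 3 of the 4 at 6 months, where 71.8% and 77.4% of all genes did, 13.3% and 15.2% in the higher direction against 58.6% and 62.2% in the lower. These splits moved with the scaling, since the median gene differed by -0.27 at 24 months and -0.26 at 6 months in the deposited values: with quantile normalization 33.4% of genes were higher and 24.8% lower at 24 months, and 38.7% and 26.7% at 6 months; with centring 40.4% and 19.7%, and 49.2% and 20.4%. Between quadriceps and liver the same scalings gave 34.4% higher and 32.1% lower, or 34.5% and 30.7%, at 24 months, and 37.8% and 32.2%, or 34.2% and 35.4%, at 6 months. Vcpkmt differed by 0.65 with either scaling at 24 months and by 0.70 or 0.71 at 6 months, outside the 95% intervals of the deposited differences (0.11 to 0.43 at 24 months and 0.17 to 0.43 at 6 months).

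**Figure D3:**
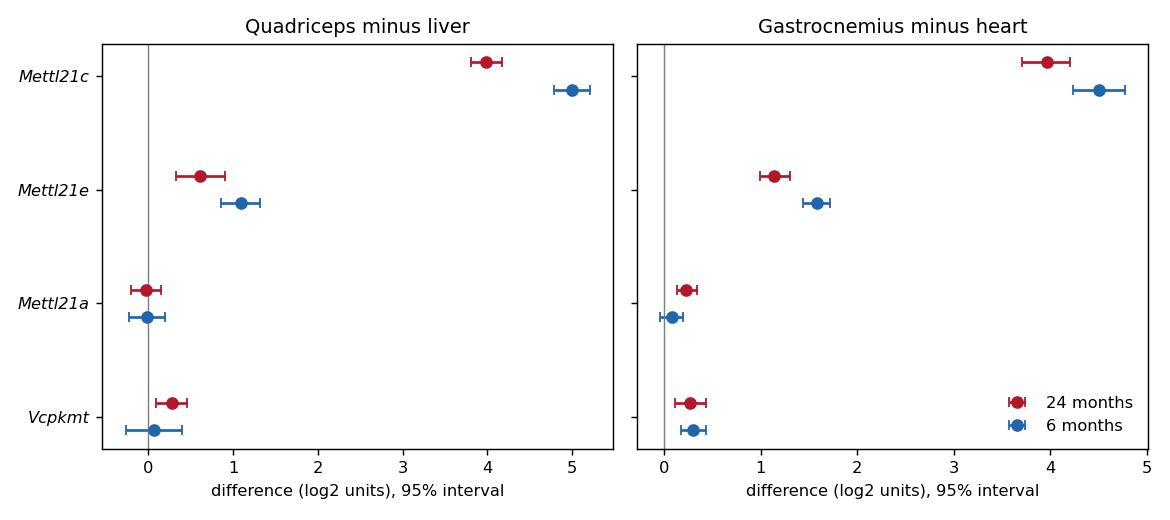
Difference between leg muscle and the other tissue of the same array type in log2 units (x axis), quadriceps minus liver on the left and gastrocnemius minus heart on the right; points are limma estimates at 24 months (red) and 6 months (blue) with 95% intervals. Mettl21c lies between 3.96 and 5.0 units, Mettl21e between 0.61 and 1.58, and Mettl21a and Vcpkmt at 0.30 or less.

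Pearson r between Mettl21c and Mettl21e was 0.87 over the 6 quadriceps arrays and 0.71 over the 8 gastrocnemius arrays. Both genes were chosen for their age difference, which these values hold: with the mean of each age removed, r was -0.44 in quadriceps and 0.17 in gastrocnemius. In quadriceps at 6 months, replicate 1 was the highest in Mettl21c, at 9.56, and the lowest in Mettl21e, at 5.46. In gastrocnemius the 24-month and 6-month arrays formed separate bands of Mettl21e while Mettl21c overlapped, and within each age replicate 4 had the highest Mettl21c. Mettl21a and Mettl21e gave r of 0.75 in quadriceps (n = 6) and -0.69 in gastrocnemius (n = 8), or 0.95 and 0.11 with the age means removed. Vcpkmt and Mettl21c gave r of -0.40 in quadriceps and 0.14 in gastrocnemius, or -0.59 and 0.59 with the age means removed. These are descriptions over few arrays, and the genes of a pair share their arrays.

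**Figure D4:**
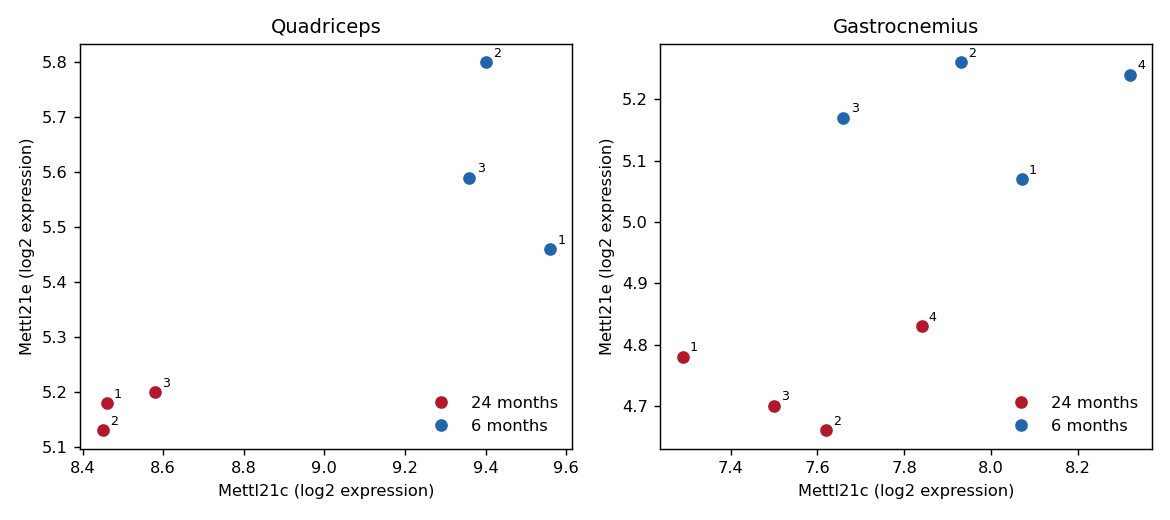
Mettl21e (y axis) against Mettl21c (x axis) in log2 expression, 1 point per array with its replicate number, for quadriceps (left) and gastrocnemius (right); red 24 months, blue 6 months. In quadriceps the ages part on both axes, and in gastrocnemius they part on Mettl21e, at 4.66 to 4.83 at 24 months and 5.07 to 5.26 at 6 months, but overlap on Mettl21c, at 7.29 to 7.84 at 24 months and 7.66 to 8.32 at 6 months.

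Mettl21c and Mettl21e lie close together on one chromosome with 5 protein-coding genes between them, Gm8251, Tex30, Poglut2, Bivm and Ercc5, by the RefSeq gene table of mouse, used here for gene order only. This list was chosen by position after the values of Mettl21c and Mettl21e were known. In quadriceps 0 of the 4 measured neighbours passed limma's adjusted threshold and 1 had an unadjusted p under 0.05, against 7.06% of all genes. Tex30 read 5.55, 5.57 and 5.58 at 24 months and 5.81, 5.86 and 5.80 at 6 months, without overlap (difference -0.26, limma adjusted p = 0.565), and Ercc5, a DNA repair endonuclease gene, also had no overlap at -0.14. Lower values without overlap thus occurred in 2 of the 4, and in 5.33% of all genes. Bivm differed by -0.23 and Poglut2 by -0.13 with overlapping ages, so all 4 had negative differences, with a median of -0.18 against 0.01 over all genes. In gastrocnemius 0 of the 5 passed and 0 had an unadjusted p under 0.05, with differences between -0.05 and 0.12, a median of 0.08 against 0.01 over all genes. Heart gave -0.08 to 0.22 with 0 of 5 called by limma and 1 at an unadjusted p under 0.05, against 5.99% of all genes. In liver, where Mettl21c and Mettl21e were near the bottom of the range, Bivm was called lower: it read 7.02, 7.10 and 7.08 at 24 months and 7.49, 7.74 and 7.61 at 6 months, a difference of -0.55 (limma adjusted p = 0.0493). This call was lost with quantile normalization (adjusted p = 0.0563), with every probe set tested (0.0712), with replicate number as a block (0.061) and without any 1 of the liver arrays except 24-month replicate 3 (0.0867 to 0.172). Tex30, Poglut2 and Ercc5 differed by -0.31, -0.22 and -0.20 in liver. All 4 differences there were negative, with a median of -0.26 against 0.03 over all genes. In 3 of the 4 the ages did not overlap, against 17.4% of all genes in this direction, and 3 of the 4 had an unadjusted p under 0.05, against 32.8% of all genes.

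Genes whose array-to-array pattern was most like each methyltransferase gene were ranked by the lower of its Pearson r over the 6 quadriceps and the 8 gastrocnemius arrays, among 9663 genes at or above the median level. For Mettl21c they were Lgalsl (0.927), AI506816 (0.897), the tRNA-modifying enzyme gene Cdkal1 (0.897), the spermine oxidase gene Smox (0.887) and Gpcpd1 (0.848), which encodes a glycerophosphocholine phosphodiesterase. For Mettl21e they were the squalene synthase gene Fdft1 (0.895), Lgalsl (0.888), Smox (0.870), Rabgef1 (0.860) and the mitochondrial adenylate kinase gene Ak3 (0.856). Lgalsl and Smox thus stood in both lists. Smox differed by -0.63 in quadriceps and -0.56 in gastrocnemius between 24 and 6 months, Lgalsl by -0.11 and -0.26. For Mettl21a the list held the chromatin remodeller gene Smarca5 (0.839), the gene of the RNA methylation reader Ythdc1 (0.817), the RNA 3' end processing gene Cpsf6 (0.798), Zfp738 (0.796) and the Hsp110-family gene Hspa4 (0.788). For Vcpkmt it held the homeobox gene Vax2 (0.884), Vwa3b (0.741), the muscle actin-binding gene Xirp2 (0.734), Rps6kc1 (0.730) and Fam25c (0.714). These are the top of many correlations over few arrays that share their age groups, and carry no p. Arrays of both ages entered r, so a shared age difference raises it. The place of Lgalsl and Smox in both lists, and their negative differences, are thus not separate results.

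Among the known substrates, Vcp itself had overlapping ages in both leg muscles. It read 10.98, 10.84 and 10.89 in quadriceps at 24 months and 11.02, 10.96 and 10.84 at 6 months, and 10.62, 10.59, 10.70 and 10.65 in gastrocnemius at 24 months and 10.64, 10.59, 10.52 and 10.68 at 6 months. The differences were -0.04 (SE 0.076, limma adjusted p = 0.949) in quadriceps and 0.03 (SE 0.051, 0.789) in gastrocnemius, both smaller than the spread between arrays. Hspa8, the constitutive cytosolic Hsp70, differed by -0.07 and -0.11 in these muscles with overlapping ages (limma adjusted p = 0.909 and 0.456). Hspa5, the Hsp70 of the endoplasmic reticulum, was above all 6-month arrays at 24 months in both muscles. It read 10.29, 10.27 and 10.21 in quadriceps at 24 months and no more than 10.10 at 6 months, and 9.18, 9.17, 9.25 and 9.17 in gastrocnemius at 24 months and 8.82, 8.70, 8.93 and 8.80 at 6 months. The differences of 0.20 (SE 0.066, limma adjusted p = 0.602) and 0.38 (SE 0.056, 0.0734) did not pass. Hspa1a, the stress-inducible Hsp70, differed by -0.88 in quadriceps (SE 0.564, limma adjusted p = 0.798), where 6-month replicate 3 read 10.10 and the other 5 arrays 7.44 to 7.79, and by 0.22 in gastrocnemius (limma adjusted p = 0.468).

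Of the list of substrates of the family and its relatives, 13 of 15 were measured in quadriceps and 10 in gastrocnemius, and 0 passed limma's adjusted threshold in either direction in either muscle. At an unadjusted p under 0.05 there were 2 in quadriceps and 3 in gastrocnemius, where 7.06% and 16.5% of all genes had one. Their median difference was 0.07 in quadriceps and 0.05 in gastrocnemius, against 0.01 over all genes in each. The next smallest p in quadriceps was that of the calmodulin gene Calm3 (0.22, limma adjusted p = 0.678). In gastrocnemius it was that of Eef1a2, the muscle and neuron form of elongation factor 1A, which read 11.38, 11.41, 11.55 and 11.37 at 24 months and 11.59, 11.66, 11.73 and 11.71 at 6 months (-0.25, limma adjusted p = 0.116). The same gene had its 24-month arrays above its 6-month arrays in quadriceps, at 12.49 to 12.56 at 24 months and 12.43 to 12.46 at 6 months. In the list of Vcp cofactors 0 of 21 measured genes passed in either muscle by limma, with 0 at an unadjusted p under 0.05 in quadriceps and 7 in gastrocnemius and a median of 0.03 in both. Aspscr1, which encodes a VCP-binding protein that stimulates VCPKMT, differed by 0.06 in quadriceps (limma adjusted p = 0.895) and by -0.10 in gastrocnemius (0.304), where its ages did not overlap. Ubxn1, a ubiquitin-binding VCP adaptor gene, was below all 6-month arrays at 24 months in both muscles, at -0.17 in quadriceps (limma adjusted p = 0.706) and -0.24 in gastrocnemius (0.103). Derl2, a gene of protein export from the endoplasmic reticulum, gave -0.15 in quadriceps (0.706), and Selenos, of the same export pathway, 0.24 in gastrocnemius (0.108).

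The list of 10 related seven-beta-strand methyltransferase genes included Eef1akmt3, also called Mettl21b. Of the 10, 9 were measured, and 0 passed limma's adjusted threshold in quadriceps or gastrocnemius. An unadjusted p under 0.05 was found for 2 and 1 of them, where 7.06% and 16.5% of all genes had one. The median differences of the 9 genes were -0.05 and -0.08. Etfbkmt, which methylates a subunit of the mitochondrial electron transfer flavoprotein, read 7.87, 7.56 and 7.71 in quadriceps at 24 months and 8.12, 8.27 and 8.21 at 6 months, with no overlap. Its difference of -0.49 (SE 0.091, limma adjusted p = 0.369) was close to that of Mettl21e in the same muscle, and it was -0.10 with overlap in gastrocnemius (0.578). Mettl18, a histidine methyltransferase gene of the same fold, gave -0.23 in quadriceps without overlap (0.583). In gastrocnemius Mettl22, whose human product methylates the DNA- and RNA-binding protein KIN, read 9.05, 8.90, 9.16 and 9.17 at 24 months and 9.29, 9.29, 9.44 and 9.48 at 6 months, again without overlap (-0.30, limma adjusted p = 0.122), and Eef1aknmt, which methylates elongation factor 1A, gave -0.08 (0.355). In the cycle that makes and recovers S-adenosylmethionine, 0 of 14 measured genes passed in quadriceps and 0 of 15 in gastrocnemius, with 2 in each at an unadjusted p under 0.05 and medians of 0.05 and 0.04. The smallest p values belonged to Gamt, the creatine-forming methyltransferase gene (0.57, limma adjusted p = 0.565), and Bhmt2 (0.28, 0.567) in quadriceps, and to the adenosine kinase gene Adk (0.16, 0.255) and Ahcyl2 (0.11, 0.286) in gastrocnemius.

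**Figure D5:**
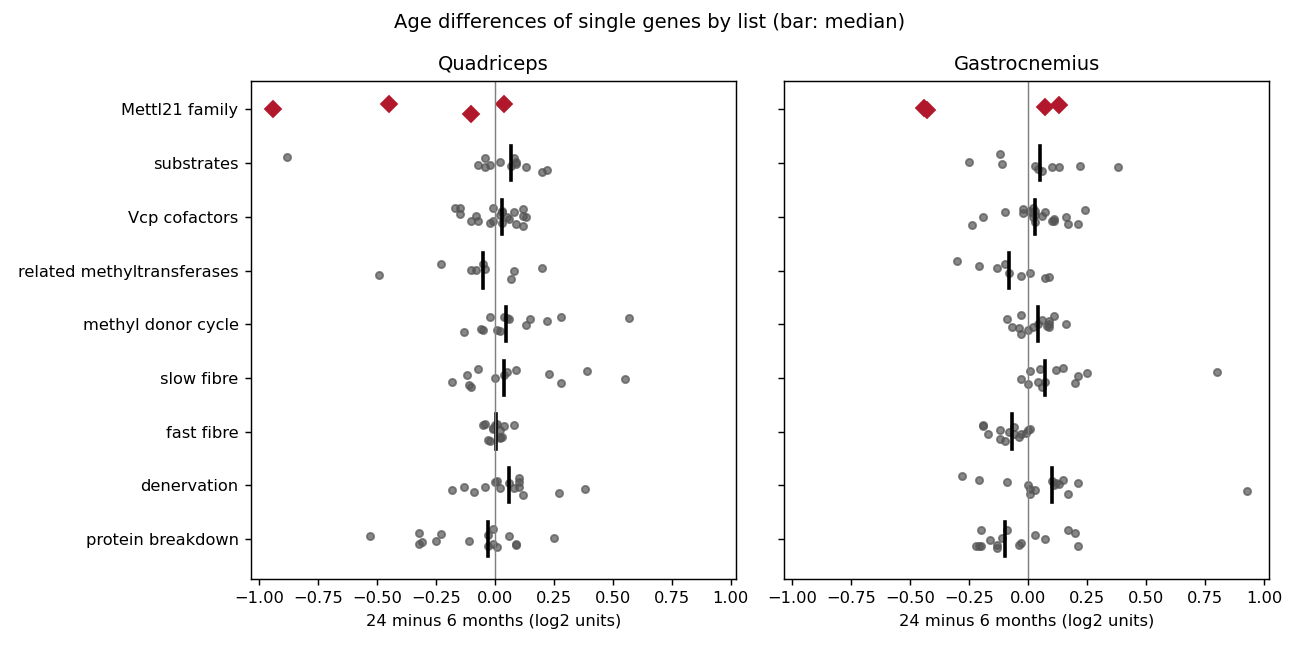
Difference between 24 and 6 months in log2 units (x axis) of single genes in quadriceps (left) and gastrocnemius (right). Red diamonds are the 4 methyltransferase genes described here, and grey points the genes of 8 lists (black bar the list median). Every list median lies between -0.10 and 0.10, and the point at -0.88 in quadriceps is Hspa1a.

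Transcripts of the fibre-type myosins named here varied between arrays, with overlapping ages. Myh7, the slow myosin heavy chain, read 8.23, 7.77 and 6.91 in quadriceps at 24 months and 6.96, 6.89 and 9.35 at 6 months. In gastrocnemius it read 8.54, 8.79, 8.66 and 7.16 at 24 months and 8.65, 7.94, 8.90 and 7.47 at 6 months, so single arrays of each age stood apart. The age differences of Myh7 were -0.10 and 0.05 in quadriceps and gastrocnemius, those of Myh2, the fast oxidative myosin, -0.01 and -0.06, those of Myh1 -0.02 and -0.03 and those of Myh4, the fastest, 0.02 and 0.01 (limma adjusted p from 0.908 to 0.998). Quadriceps 6-month replicate 3, highest in slow fibre genes and Hspa1a, had the lowest Mettl21c of its group, 9.36, and the middle Mettl21e, 5.59. Replicate 4 of each age in gastrocnemius, low in Myh7, Myh2 and Myh1, had the highest Mettl21c of its age, 7.84 and 8.32. Over all arrays r between Mettl21c and Myh7 was -0.05 in quadriceps (n = 6) and -0.55 in gastrocnemius (n = 8). With the age means removed it was -0.70 and -0.74. Between Mettl21c and Myh2, r was -0.09 in quadriceps and -0.56 in gastrocnemius, or -0.60 and -0.84 with the age means removed. Of the 36 correlations computed, the most negative was that of Mettl21c with Hspa1a in gastrocnemius, at -0.91, and their r in quadriceps was 0.38. The most positive was that of Vcpkmt with Myh2 in quadriceps, at 0.93, and their r in gastrocnemius was -0.45. With the age means removed these were -0.93 and -0.64 for Mettl21c with Hspa1a, and -0.46 and 0.98 for Vcpkmt with Myh2, in gastrocnemius and quadriceps. They were singled out after their values were seen. The part of fibre make-up in the methyltransferase values was not tested.

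The lists of fibre, denervation and protein breakdown genes had 0 genes past limma's adjusted threshold in either leg muscle. The slow fibre list had 8 of 13 positive differences in quadriceps and 11 of 13 in gastrocnemius. Where 7.06% and 16.5% of all genes had an unadjusted p under 0.05, 1 gene of the slow fibre list had one in each muscle. Its member of smallest p was Sln, whose product sarcolipin regulates the calcium pump: it read 6.55, 6.14 and 6.07 in quadriceps at 24 months and 5.64, 5.80 and 5.68 at 6 months (0.55, limma adjusted p = 0.565), and 7.59, 8.0, 7.70 and 7.07 in gastrocnemius at 24 months and 7.35, 6.59, 6.57 and 6.66 at 6 months (0.80, 0.141). Pln, the related pump regulator, differed by 0.09 and 0.21 with overlapping ages. The fast fibre list had 7 of 14 positive differences in quadriceps and 1 of 14 in gastrocnemius, with 0 and 5 at an unadjusted p under 0.05 and medians of 0.00 and -0.07. Its smallest p values were those of Actn3 (0.08) and Myl1 (-0.05) in quadriceps, and of the Z-disc gene Myoz1 (-0.19, limma adjusted p = 0.129) and the troponin gene Tnni2 (-0.17, 0.168), both without overlap, in gastrocnemius.

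In the denervation list 11 of 15 measured genes had positive differences in each leg muscle, with medians of 0.06 in quadriceps and 0.10 in gastrocnemius and 1 and 3 genes at an unadjusted p under 0.05. Chrnb1, a subunit gene of the muscle acetylcholine receptor, read 9.01, 8.68 and 8.83 in quadriceps at 24 months and 8.51, 8.41 and 8.45 at 6 months, without overlap (0.38, limma adjusted p = 0.565). In gastrocnemius it differed by 0.21 (0.171), with overlapping ages. Next came the transcription factor gene Runx1 in quadriceps (0.27, limma adjusted p = 0.747) and the stress-responsive sarcomere gene Ankrd1 in gastrocnemius (0.93, 0.253), where its values ran from 7.58 to 9.13 at 24 months and from 6.60 to 7.81 at 6 months. The protein breakdown list had 11 of 16 negative differences in each muscle, with medians of -0.03 and -0.10. Of the 16 genes, 6 had an unadjusted p under 0.05 in each muscle, against 7.06% of all genes in quadriceps and 16.5% in gastrocnemius. Its smallest p values were those of the proteasome subunit gene Psma1 (-0.25, limma adjusted p = 0.572) and the ubiquitin ligase gene Fbxo21 (0.25, 0.572) in quadriceps. In gastrocnemius they were those of the autophagy gene Map1lc3a (-0.21, 0.179) and the ubiquitin ligase gene Fbxo31 (-0.20, 0.181). In liver and heart the 8 lists also had 0 genes called by limma, but the liver count was 21 with arrays centred on their median and 39 without 24-month replicate 3.

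Markers of other cell types were counted beside these results, and 0 of their genes passed limma's adjusted threshold in either leg muscle. In gastrocnemius the 5 macrophage markers averaged 6.53 to 6.73 in the arrays at 24 months and 6.32 to 6.37 at 6 months. Their differences were positive in 5 of 5, with a median of 0.25. An unadjusted p under 0.05 was found for 4 of the 5, against 16.5% of all genes. The 3 measured Schwann cell markers of 5 averaged 7.17 to 7.29 at 24 months and 7.39 to 7.44 at 6 months there, with 3 of 3 differences negative. The 5 endothelial markers averaged 7.59 to 8.17 at 24 months and 7.94 to 8.27 at 6 months, overlapping ranges with 5 of 5 differences negative. Adipocyte markers, 5 of 6 measured, averaged 5.92 to 6.15 at 24 months and 5.77 to 5.95 at 6 months, and fibroblast markers, also 5 of 6, 8.23 to 8.54 at 24 months and 8.41 to 8.60 at 6 months. In gastrocnemius 2 Schwann cell, 2 endothelial, 3 fibroblast and 1 adipocyte markers also had an unadjusted p under 0.05. In quadriceps fibroblast markers averaged 9.04 to 9.16 at 24 months and 9.14 to 9.33 at 6 months with 6 of 6 differences negative, and adipocyte markers 7.57 to 8.43 at 24 months and 6.85 to 8.35 at 6 months with 5 of 5 positive. Macrophage, endothelial and Schwann cell averages overlapped between the ages in quadriceps. The part of these cell types in the lower Mettl21c and Mettl21e values at 24 months was not tested. The fast skeletal muscle markers themselves averaged 13.89 to 13.91 in quadriceps at 24 months and 13.81 to 13.93 at 6 months, and 13.08 to 13.18 in gastrocnemius at 24 months and 13.20 to 13.25 at 6 months. In gastrocnemius the 24-month averages of these muscle markers thus lay below the 6-month ones, with 4 of 5 differences negative and a median of -0.08.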

How the data were processed

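Total RNA of 28 samples was amplified with a whole-transcript kit and hybridised to 2 types of Affymetrix array, per the labels' protocols. The authors deposited log2 expression values per probe set, made with RMA per the submitters' processing notes. Its version, and which arrays were normalized together, are not given in the sources used here. RMA makes arrays alike, so a shift shared by most genes can be lost. All columns were mapped to samples (0 left over). Symbols came from the platform annotation, updated through a RefSeq table, with the probe set of highest mean kept per gene: 19928 genes for quadriceps and liver, 30063 for gastrocnemius and heart. Each pair of groups was fitted alone in R 4.3.3 with limma 3.58.1 (lmFit, eBayes, two-sided), with Benjamini-Hochberg adjustment over all genes of the table and a threshold of 0.05. The fit was tested on simulated data.

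The 4 genes and all lists were chosen with earlier results of these data known. Named genes were the 4, selected substrates, cofactors and myosins, list members past the threshold or the 2 of smallest p per leg muscle, and 5 genes of most similar pattern. Genes named to describe single arrays or positions were chosen after their values were seen. Alternatives were quantile normalization, centring, dim genes left out, every probe set, limma's robust prior with an intensity trend, a joint fit, array weights, a replicate block and leaving out each array. Replicate numbers were not treated as pairs. The number of arrays, not read depth, limits the precision.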

Additional observations from a re-analysis of the deposited data

Results flagged for a closer look

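Among 180 groups of 4 arrays examined, 15 had an array whose gap to the next exceeded Dixon's 95% limit, where chance gives about 1 in 20. The groups covered the methyltransferase genes, the named substrate, myosin and list genes, the genes between Mettl21c and Mettl21e, Alb and Myh6 in heart and gastrocnemius, but not the genes of similar pattern. For the methyltransferase genes these were Mettl21c in heart at 24 months, with replicate 1 at 3.79, and Mettl21e in heart at 24 months, with replicate 4 at 3.42. Without those arrays the heart age differences were 0.05 for Mettl21c and 0.05 for Mettl21e, against 0.11 and 0.00 with all arrays. In gastrocnemius at 24 months, replicate 3 stood apart in Hspa5, at 9.25, and in Selenos, at 7.55. Replicate 4 stood apart in Myh7, at 7.16, and replicate 2 in Psma1, at 8.40. Replicate 4 was also apart in Alb, at 4.97. In gastrocnemius at 6 months, replicate 4 stood apart in Myh2, at 11.58, and in Myh1, at 12.13, and replicate 1 in Sln, at 7.35. In heart, the other arrays that stood apart were 6-month replicate 4 in Myh1, at 5.66, in Myh4, at 6.0, and in Tex30, at 4.91, 6-month replicate 3 in Fbxo21, at 8.57, and 24-month replicate 2 in Runx1, at 6.40.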

How the results depend on the processing

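Of 581 values recomputed for the genes and counts under other settings, 548 were scored as kept and 17 as changed in sign. Another 10 lost the call of a gene (Bivm in liver or Vcpkmt between quadriceps and liver), 2 gained one (Mettl21a between gastrocnemius and heart) and 4 were counts that moved by over 1.5 times. Kept meant the same direction and side of the threshold, or for counts within 1.5 times. For leg muscle age differences of the 4 genes it meant a move smaller than the SD within groups. Calls were not scored there: without any 1 of the 6 quadriceps arrays or with the replicate block, Mettl21c lost its call. The difference of Vcpkmt in quadriceps turned to -0.01 without 6-month replicate 1, against 0.04 with all arrays. In the leg muscles Mettl21c and Mettl21e kept a negative age difference under every setting run. Leaving out 1 array in turn gave -0.99 to -0.88 for Mettl21c and -0.53 to -0.36 for Mettl21e in quadriceps, and -0.54 to -0.32 and -0.48 to -0.42 in gastrocnemius. Sign changes were all in small differences. With quantile normalization they were -0.04 for Mettl21e in liver and, for Mettl21a between quadriceps and liver, 0.18 at 24 months and 0.12 at 6 months. With centring they were -0.08 for Mettl21e and -0.04 for Mettl21c in liver, and 0.17 and 0.08 for Mettl21a at 24 and 6 months. With array weights they were 0.03 for Mettl21e in heart and 0.05 for Mettl21a at 6 months. With 1 array left out, Mettl21e ran from -0.11 to 0.16 in liver and from -0.03 to 0.05 in heart, Mettl21a between quadriceps and liver from -0.07 to 0.01 at 24 months and from -0.10 to 0.07 at 6 months, and Vcpkmt at 6 months from -0.11 to 0.22. Between quadriceps and liver 1 of the 4 genes was called at each age once dim genes were left out, since that filter removes Mettl21e and Vcpkmt. Leaving out 1 array gave 2 to 3 calls at 24 months, Vcpkmt losing its call without quadriceps 24-month replicate 2 (adjusted p = 0.0507), as it did in the joint fit (0.0686). List genes called in liver numbered 21 with centring, an alternative chosen after seeing the data, and 0 to 39 with 1 array left out, 39 without 24-month replicate 3. The cause was not tested. Over all genes, calls ran from 0 to 7897 in liver (65 as deposited), 0 to 49 in heart (2), 0 to 18 in quadriceps (1) and 0 to 829 in gastrocnemius (3). Replicate numbers were not taken as pairs, since no comparison had every same-numbered pair of arrays correlated over 0.1 in its deviations: in gastrocnemius the values were 0.13, -0.04, 0.21 and 0.30, with replicate 2 not matching its own number best, and in the other comparisons they ran from -0.22 to 0.19. With the replicate number as a block, 0 genes were called in each age comparison, the age differences of Mettl21c and Mettl21e were unchanged at -0.94 and -0.45 in quadriceps and -0.43 and -0.44 in gastrocnemius, and the calls of the 4 genes between tissues stayed at 3 and 2 in quadriceps and 4 and 3 in gastrocnemius at 24 and 6 months. A next-highest probe set per gene was not run, as each of the 4 genes had 1 probe set per table. Arrays numbered 3 or 4 per age, which limits these comparisons. Probe signals below the array medians limit them too. These were found for Mettl21c outside leg muscle, for Mettl21e except in gastrocnemius at 6 months, and for Vcpkmt except in gastrocnemius.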
